A study of Danio rerio with 3 samples.

Results

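A group of 1807 cells of the adult zebrafish telencephalon was chosen by *c1ql3b*, *nell2b*, and genes found with them, and is described here as c1ql3b/nell2b-gated cells, or gated cells. They were taken from 19102 cells with at least 200 genes and at most 10% of unique molecular identifiers (UMIs) from the 13 mitochondrial genes, and made up 9.46% of them. A cell was gated if it had UMIs of at least 2 of 6 markers (*c1ql3b*, *nell2b*, *c1qtnf4*, *stc2a*, *phlda2*, and *efna1b*) and 0 UMIs of 5 genes that mark other cells. These were *slc1a2b*, a glutamate transporter of radial glia, *dlx2a*, a transcription factor of subpallial cells, and the replication and mitosis genes *rrm2*, *pclaf*, and *ube2c*. The markers came from these same data, so the levels of the 11 rule genes are given as a description without a test. The other genes were measured in the same cells and libraries, and differences in them are not independent of that choice. A working name for such cells is mature pallial neurons, and the data go against it in part, since 16.0% of the gated cells had UMIs of at least 2 GABAergic genes and 3.82% carried oligodendrocyte genes at high levels.

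The study asked how neural stem cells (NSCs) of the adult pallium respond when Notch signaling is blocked, and sequenced single cells of the telencephalon with a droplet method. All cells of this LY dataset came from *Tg(Sox2:gfp)* fish of 12 weeks treated with LY-411575 (LY), an inhibitor of the gamma-secretase that releases the active part of Notch. Treatment was at 10 μM, for 24 hours in the study's methods and for 48 hours in the deposited labels. DMSO-treated fish were not analysed here, so nothing below compares treated with untreated cells. Each of the 3 replicates pooled 20 fish and was sorted on its own day. Olfactory bulbs were removed, a cut at the border of the subpallium favored pallial tissue, and the sorted sample was made up of GFP-positive and GFP-negative cells in equal amounts. Shares of cells are therefore shares of a sorted mixture, not of the tissue. The reporter is driven by *sox2*, a gene of NSCs and progenitors, and the gated cells had 15.3, 4.78, and 20.1 CPM of *gfp* (UMIs of a gene in 1000000 UMIs of the summed cells) in replicates 1, 2, and 3, below the 34.4, 17.0, and 29.8 CPM of all other cells in each replicate.

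Replicates 1, 2, and 3 held 15050320, 13048298, and 12104324 UMIs. Of 8143, 6205, and 5349 barcodes, 7882, 6043, and 5177 passed the filter. The gated cells had a median of 1736 UMIs and 858 genes, and all other cells 1614 UMIs and 801 genes. Mitochondrial genes took a median of 2.96% of the UMIs of a gated cell and 1.88% of another cell. A rule that asks for UMIs of at least 2 genes favors deeper cells, and a rule that asks for 0 UMIs favors shallower ones. Of the barcodes that passed the filter, 166 occurred in more than 1 library. Among the gated cells 33 had such a barcode, and in no case was the cell with the same barcode in the other library also gated.

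The pallium is the dorsal part of the telencephalon. Its NSCs, the radial glia along the ventricle, give rise to excitatory neurons that load glutamate into synaptic vesicles, whereas GABAergic neurons of the telencephalon arise mostly in the subpallium. A newborn pallial neuron carries transcription factors of the bHLH and T-box families and genes of the growing cytoskeleton, and as it matures it turns on genes of vesicle release, ion channels, receptors, and peptides. C1ql proteins are secreted, are related to complement C1q, and in the mouse bind the adhesion receptor BAI3 at synapses.

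The gated cells were 691, 795, and 321 cells in replicates 1, 2, and 3. They made up 8.77% of the cells of replicate 1 (exact Clopper-Pearson 95% interval 8.15 to 9.41), 13.2% of replicate 2 (12.3 to 14.0), and 6.20% of replicate 3 (5.56 to 6.89), with a mean of 9.37 ± 3.52% (SD, n = 3). The replicates differed by more than counting error, replicate 2 being highest and replicate 3 lowest. With 3 of 6 markers the mean share was 4.0%, and with 1 of 6 markers 22.9%. These intervals cover counting error only.

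The threshold left close neighbors on either side. Among cells with no UMI of an excluded gene, 4551 had 0 markers, 2613 had 1, 1030 had 2, 447 had 3, 253 had 4, 68 had 5, and 9 had all 6. Just outside the rule, cells with 1 marker had a median of 1283 UMIs, and just inside it, cells with 2 had a median of 1556. UMIs of at least 2 GABAergic genes (*gad1b*, *gad2*, *slc32a1*, and *slc6a1b*) were found in 20.9% of the cells with 0 markers and 24.3% with 1. The share was 20.8% with 2, 10.5% with 3, 8.30% with 4, 10.3% with 5, and 0% with all 6. Cells with 3 or more markers were thus deeper than cells with 2 and had a lower share of cells with GABAergic genes. The excluded genes mattered too, because of 3419 cells with at least 2 markers 1612 (47.1%) were left out by an excluded gene. Of these 1612 cells 1171 had *slc1a2b*, and 773 were left out on a single UMI. The cells left out had a median of 2742 UMIs.

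Several kinds of cells met the rule. UMIs of at least 2 of *tbr1b*, *neurod2*, and *neurod1*, transcription factors of young pallial neurons, were found in 478 gated cells (26.5%). UMIs of at least 2 of the 4 GABAergic genes were found in 289 gated cells (16.0%), 36 gated cells met both conditions, and 1076 (59.5%) met neither. The GABAergic share was 25.6, 7.42, and 16.5% of the gated cells in replicates 1, 2, and 3. The GABAergic gate, defined below, holds cells outside the first gate that met this condition and had no UMI of *slc1a2b*, *rrm2*, *pclaf*, or *ube2c*. It made up 15.7, 5.44, and 10.9% of all cells in these replicates. These are shares of all cells under a narrower condition, so their size cannot be compared with the GABAergic share of the gated cells. Both shares were highest in replicate 1 and lowest in replicate 2. The share of gated cells with newborn genes was 18.4, 34, and 25.2%, in the reverse order.

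Markers of cells that are not neurons were not evenly spread over the gated cells. The summed level of 9 oligodendrocyte markers found in the files (*mbpa*, *mbpb*, *plp1b*, *mpz*, and others) was 9695, 21780, and 26764 CPM in the gated cells and 5540, 7616, and 6719 CPM in all other cells. However, 69 gated cells, each with over 5% of its UMIs from this list and with a median of 3541 UMIs, held 95.2% of it, and 1736 gated cells had at most 2%. A further 19 gated cells had UMIs of at least 3 of 18 macrophage markers. Without these 88 cells (4.87% of the gated cells), the oligodendrocyte markers summed to 621, 1137, and 1193 CPM. The radial glia list, with *gfap*, *cx43*, and *fabp7a* among its 15 genes, summed to 2644 ± 316 CPM in the gated cells and 12559 CPM in all other cells (means of 3 replicates). This list also holds *slc1a2b*, which the rule sets to 0 in the gated cells and which had a mean of 1458 CPM in all other cells. The erythrocyte list reached 3448 CPM in replicate 2 and 43.1 and 186 CPM in the others. The part of these cells in the results below was not tested beyond the values without the 88 cells, which are given where they change a call.

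The first marker in number was *nell2b*, which encodes a secreted neuronal glycoprotein with EGF-like repeats and had a UMI in 1470 gated cells (81.4%). *c1qtnf4*, a secreted protein with C1q-like domains, was found in 1254 (69.4%), *efna1b*, a membrane-anchored ephrin ligand, in 774 (42.8%), and *phlda2*, which encodes a small protein with a pleckstrin homology domain, in 543 (30.05%). *c1ql3b* itself was found in 448 gated cells (24.8%), and *stc2a*, a stanniocalcin, in 318 (17.6%). The most frequent pair was *nell2b* with *c1qtnf4* (982 cells, 54.3%), and for 359 cells these were the only markers. *c1ql3b* occurred with *nell2b* in 353 cells (19.5%). Most gated cells therefore entered through *nell2b* and *c1qtnf4*, and a minority carried *c1ql3b*. *c1ql3b* is listed under 2 identifiers, and the one used (ENSDARG00000036483) held 2833 UMIs against 17 for the other.

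*nell2b* had 1758, 1612, and 1577 CPM in the gated cells of replicates 1, 2, and 3, and a mean of 290 CPM in all other cells. *c1ql3b* had 421, 363, and 256 CPM in the gated cells (347 ± 83.6) and a mean of 39.1 CPM in all other cells. *c1qtnf4* had 705, 796, and 583 CPM against a mean of 111, *efna1b* 456, 454, and 265 against 67.2, *phlda2* 204, 338, and 234 against 49.2, and *stc2a* 174, 143, and 88.8 against 29.0. The rule fixes these differences. To describe each marker in cells that it had not chosen, cells were gated by the other 5 markers. Under this gate, the log2 ratio of chosen to all other cells was 2.74 ± 0.27 for *c1ql3b*, 2.22 ± 0.17 for *nell2b*, 2.15 ± 0.12 for *c1qtnf4*, 2.04 ± 0.25 for *efna1b*, 1.78 ± 0.27 for *stc2a*, and 1.74 ± 0.13 for *phlda2* (mean ± SD of 3 replicates). Each held-out marker was higher in the chosen cells in all 3 replicates, which is a description because the 6 markers were picked together from these data.

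**Figure D1:**
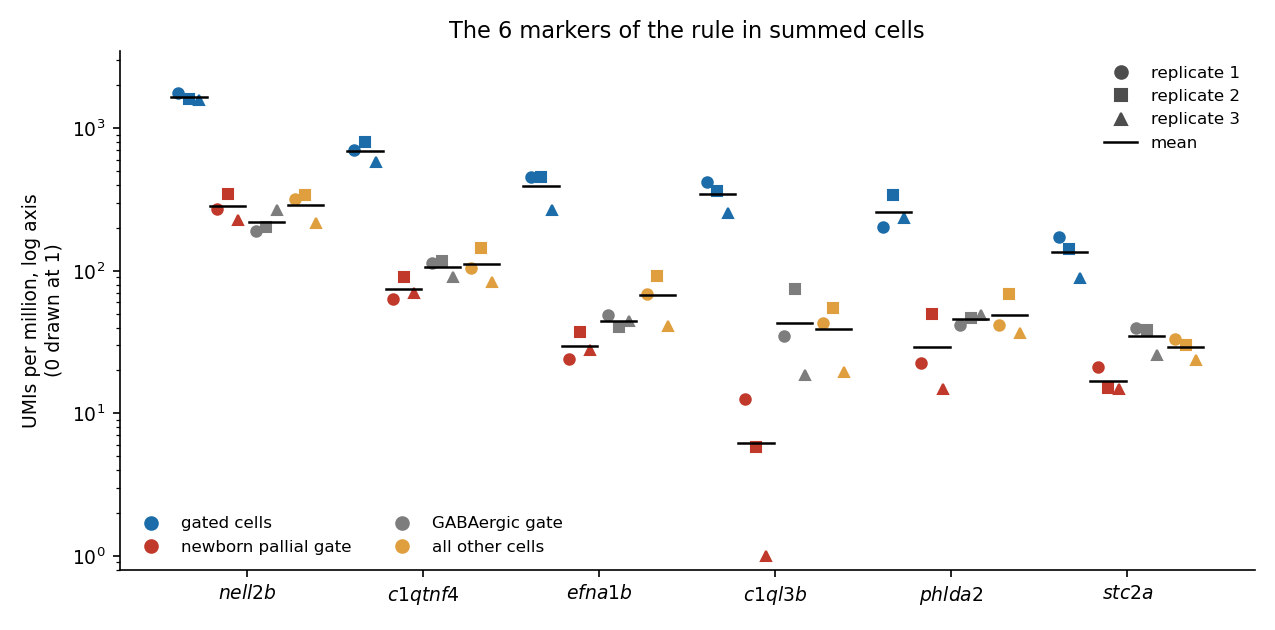
CPM (log axis, 0 drawn at 1) of the 6 rule markers in the gated cells, the newborn pallial gate, the GABAergic gate, and all other cells, with 1 symbol per replicate and a bar for the mean. *nell2b* lies between 1577 and 1758 in the gated cells and *c1ql3b* between 256 and 421, above each comparison group, as the rule requires.

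The gated cells were compared with all other cells and with 2 groups of neurons from the same libraries. The newborn pallial gate held 1098 cells outside the first gate with UMIs of at least 2 of *tbr1b*, *neurod2*, and *neurod1* and 0 UMIs of the 5 excluded genes. The GABAergic gate held 2130 cells outside the first gate with UMIs of at least 2 of the 4 GABAergic genes and 0 UMIs of *slc1a2b*, *rrm2*, *pclaf*, and *ube2c*. Their median depths were 1796 and 1371.5 UMIs, and 65 cells were in both. UMIs were summed per replicate and group and tested with edgeR with the replicate as a block, and log2 fold changes are given ± SE. Both sums of a replicate come from 1 library, so the p-values measure how the difference between the groups varied over the 3 libraries. Genes of the gates were left out of the counts of calls. Other genes found together with the gate genes were counted, and their differences are not independent of how the gates were chosen. Where 0 genes of a list are said to have risen or fallen against 1 of these 3 groups, DESeq2 and an unadjusted p under 0.05 also gave 0 unless stated.

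Against the newborn pallial gate, 3683 of 7523 genes differed (49.0%; 1900 or 25.3% higher in the gated cells, 1783 or 23.7% lower). Against the GABAergic gate, 1104 of 8882 genes differed (12.4%; 568 or 6.39% higher, 536 or 6.03% lower), and without replicate 1 the higher genes numbered 377. Against all other cells, 5487 of 14149 genes differed (38.8%; 2453 or 17.3% higher, 3034 or 21.4% lower). Without replicate 2, which held the most gated cells, the last comparison gave 1519 higher and 2020 lower genes. The counts of calls for each gene group below are to be read against these shares.

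The first question was which transmitter the gated cells use. *slc17a6a*, a vesicular glutamate transporter, had 131, 95.0, and 81.7 CPM in the gated cells, 45, 32.7, and 24 CPM in the newborn pallial gate, and 9.27, 11.7, and 6.20 CPM in the GABAergic gate. The gated cells were highest in each replicate, and the 3 groups did not overlap. The log2 fold change was 1.56 ± 0.19 against the newborn pallial gate (edgeR adjusted p = 3.4e-13) and 3.60 ± 0.22 against the GABAergic gate (adjusted p = 3.2e-11). Its paralog *slc17a6b* rose against the GABAergic gate (2.08 ± 0.25, adjusted p = 2.3e-06) but had 64.2, 56.2, and 25.8 CPM in the gated cells and 82.9, 50.1, and 36.9 CPM in the newborn pallial gate, which overlap (−0.20 ± 0.19, adjusted p = 0.40). *slc17a7a*, the transporter that marks cortical neurons in mammals, was rare, with 11.7, 2.99, and 1.43 CPM in the gated cells and 1.80, 0.893, and 0.713 CPM in all other cells.

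Of 27 listed genes of glutamatergic transmission, 13 were tested against the newborn pallial gate, of which 12 rose and 0 fell, with a median log2 fold change of 1.51 where that of all genes was −0.01. Those that rose included the AMPA receptor subunit *gria2b* (1.43 ± 0.13), the NMDA receptor subunit *grin1b* (1.84 ± 0.16), and the metabotropic receptor *grm5a*. *grm5a* had 156, 111, and 100 CPM in the gated cells against 21.1, 19.8, and 9.21 CPM, with every gated sum above every newborn sum (2.79 ± 0.21, adjusted p = 7.6e-26). Against the GABAergic gate, 16 were tested, of which 4 rose and 4 fell (median 0.08). The rises were *slc17a6a*, *slc17a6b*, *gria1a*, and *gria2b*, and *gria1a* was no longer called without replicate 2 (0.23) or without replicate 3 (0.42). Glutamate receptors did not separate these groups of neurons as the transporters did.

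GABAergic identity genes depended on the comparison. *gad2*, which makes GABA, had 337, 86.7, and 211 CPM in the gated cells, high in replicate 1 and low in replicate 2. In the newborn pallial gate it had 121, 63.0, and 73.7 CPM (1.17 ± 0.15, edgeR adjusted p = 1.7e-10). Of 11 genes of this list tested, 9 rose against the newborn pallial gate. Among them were the vesicular GABA transporter *slc32a1* (1.41 ± 0.16) and the subpallial transcription factor *dlx5a* (0.78 ± 0.18). *lhx6*, a subpallial factor outside the list, rose too (0.83 ± 0.31, edgeR adjusted p = 0.019). Without the 289 gated cells with at least 2 GABAergic genes, a choice made after seeing the data, the log2 fold change was −0.74 for *gad2*, −1.18 for *slc32a1*, −0.069 for *dlx5a*, and −0.13 for *lhx6*. These cells were chosen by *gad2* and *slc32a1*, among others, and were removed from the gated side alone, which by itself lowers these genes, so nothing is read from the change of sign. The call of *lhx6* was also lost without replicate 1 (0.78) or replicate 2 (0.79). With at least 3 of 6 markers, the calls of *gad2* (0.33), *dlx5a* (0.16), and *lhx6* (0.019) against the newborn pallial gate were lost. Against all other cells 10 of 15 genes of the list fell and 0 rose, *gad2* among them (−0.31 ± 0.09, adjusted p = 0.0055), which was not called without replicate 2 (−0.15). The rule leaves out cells with *dlx2a*, so these falls are not independent of it.

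Against the GABAergic gate, 10 of 11 tested genes of the identity list fell and 0 rose, with a median of −2.0. The rule left 0 UMIs of *dlx2a* in the gated cells, whereas the GABAergic gate did not exclude it (240, 264, and 297 CPM). That gate was also chosen by GABAergic genes. Falls of genes found with these or with *dlx2a* are therefore given as a description. *nkx2.1*, a transcription factor of the ventral subpallium, had 22.6, 3.59, and 11.5 CPM in the gated cells and 88.8, 93.4, and 65.1 CPM in the GABAergic gate (−2.76 ± 0.47, edgeR adjusted p = 0.024). *dlx1a*, another subpallial factor, had 38.7, 12.0, and 24.4 CPM against 123, 105, and 118 CPM (−2.21 ± 0.22, adjusted p = 1.6e-06). *lhx6* had 39.4, 12.0, and 35.8 CPM against 185, 60.1, and 146 CPM (−2.20 ± 0.16, adjusted p = 7.5e-10). No gated sum reached the GABAergic sums of any of these genes, and all of them were lowest in the gated cells of replicate 2. *nkx2.1* (−2.81) and *dlx5a* (−2.39) kept their size but not their call without replicate 3. Other factors that fell were *six3b* (−2.27 ± 0.22), *etv1*, an ETS factor (−2.48 ± 0.17), and *gli3*, a factor of hedgehog signaling (−2.46 ± 0.21).

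Single cells were sorted by transmitter at equal depth, after each cell was thinned to 1000 UMIs and shallower cells, among them 284 gated cells, were left out. A UMI of a vesicular glutamate transporter (*slc17a6a*, *slc17a6b*, *slc17a7a*, or *slc17a8*) and none of *gad1b*, *gad2*, or *slc32a1* was found in 12.4 ± 1.94% of the gated cells, 6.33% of the newborn pallial gate, 0.462% of the GABAergic gate, and 1.26% of macrophage-marked cells (UMIs of at least 5 macrophage markers, median 1573 UMIs), which should lack these genes and so show the level of free RNA. Each cell of the GABAergic gate had a UMI of *gad1b*, *gad2*, or *slc32a1* before thinning, so its low share in this class was set by that gate. The reverse, a GABA gene and no transporter, was found in 20.3 ± 11% of the gated cells (31.9, 10.1, and 18.9% by replicate). It was found in 12.5% of the newborn pallial gate, 13.5% of macrophage-marked cells, and 25.8% of all other cells. All other cells had 36.6, 14.8, and 26.1% by replicate, above the gated cells in each. Neither was found in 65.1% of the gated cells. The glutamate share stood well above free RNA in each replicate, whereas the GABA share of macrophage-marked cells was 15.2, 6.45, and 18.75% in replicates 1, 2, and 3, below the gated cells in replicates 1 and 2 and close to them in replicate 3. Among the gated cells, the glutamate share was 8.62, 13.5, and 21.4% with 2, 3, and 4 or more markers, and the GABA share was 26.3, 15.6, and 7.73%. The markers are those of the rule and came from these data, so this order is a description. Without thinning the shares in the gated cells were 16.6% and 24.7%.

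**Figure D2:**
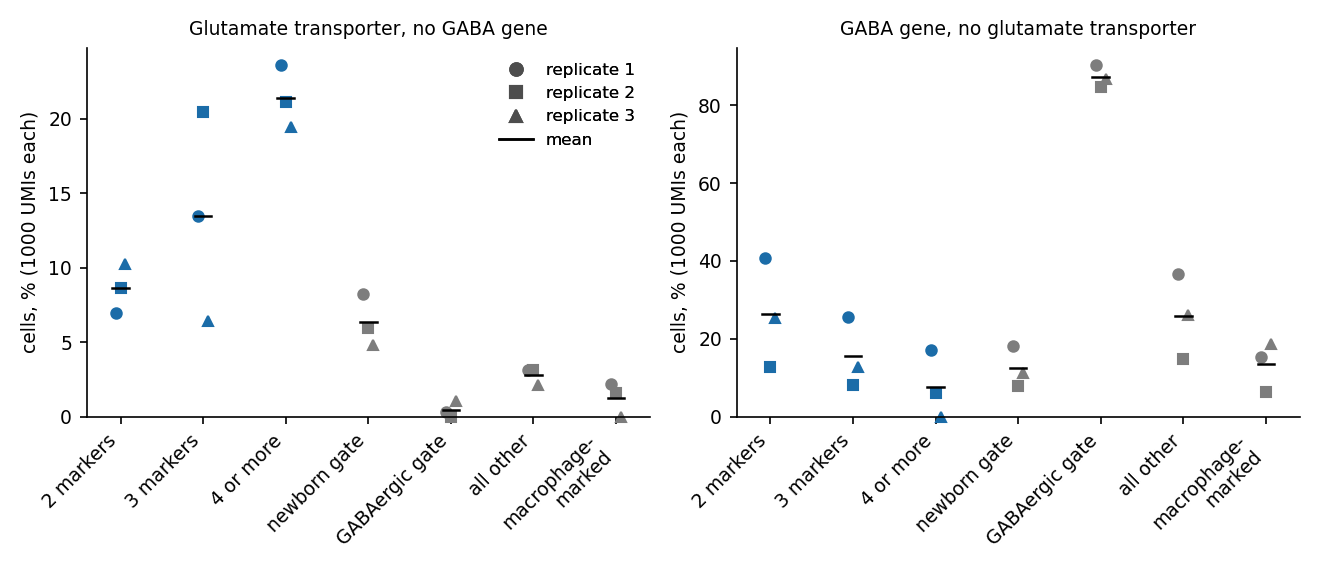
Percentage of cells with a UMI of a vesicular glutamate transporter and no GABA gene (left) and of a GABA gene and no transporter (right), each cell thinned to 1000 UMIs, with 1 symbol per replicate and a bar for the mean. From 2 to 4 or more rule markers the glutamate share goes from 8.62 to 21.4% and the GABA share from 26.3 to 7.73%, while macrophage-marked cells, which show free RNA, lie at 1.26 and 13.5%. The GABAergic gate was chosen by GABA genes, which sets its place in both panels. The rule markers came from these data, so the order by their number is a description.

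The transcription factors divided the gated cells from both comparison groups in different ways. *bhlhe22*, which in the mouse acts in cortical projection neurons, had 662, 833, and 858 CPM in the gated cells and 107, 165, and 139 CPM in the GABAergic gate (2.52 ± 0.09, edgeR adjusted p = 5.0e-15). In the newborn pallial gate it had 559, 658, and 660 CPM, and the difference of 0.30 ± 0.12 (adjusted p = 0.037) was not called without replicate 2 (0.28) or replicate 3 (0.26). At 1000 UMIs, 45.6% of the gated cells and 43.6% of the newborn pallial gate had a UMI of *bhlhe22*, against 11% of the GABAergic gate and 9.58% of macrophage-marked cells. *bhlhe22* was thus shared by the gated and newborn cells and set both apart from the GABAergic gate.

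*neurod6a* and *neurod6b*, bHLH factors of pallial neurons, rose by 2.21 ± 0.14 and 2.27 ± 0.11 against the GABAergic gate, and *neurod2* by 2.28 ± 0.15 (119, 200, and 130 CPM against 24.4, 36.7, and 28.9 CPM). The T-box factors *tbr1b* (1.21 ± 0.13) and *eomesa* (1.26 ± 0.14) rose there too. The call of *eomesa* was lost with at least 3 of 6 markers (0.86) or with no block (1.22). In all, 12 of 30 listed pallial factors rose against the GABAergic gate and 9 fell. The direction was the reverse against the newborn pallial gate, where 14 of 20 fell and 4 rose (*mef2cb*, *mef2d*, *neurod6a*, and *bhlhe22*), with a median of −0.68. All cells of that gate were chosen by pallial factors, a condition that 26.5% of the gated cells met. Falls of factors found with these are therefore not independent of the choice. *eomesa* had 295, 509, and 352 CPM in the gated cells against 934, 1466, and 1272 CPM (−1.70 ± 0.13, edgeR adjusted p = 1.0e-26). *emx3*, a homeobox factor of the pallium, had 111, 121, and 107 CPM against 690, 683, and 820 CPM (−2.69 ± 0.13, adjusted p = 1.3e-44). Every gated sum of these genes was below every newborn sum. *lhx2b*, a LIM homeobox gene, also fell (−2.12 ± 0.17), whereas *mef2cb*, whose family acts in maturing neurons, rose (1.61 ± 0.25).

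Several genes of early neuronal differentiation were among the 10 largest falls against the newborn pallial gate. That gate was chosen by transcription factors of young neurons, so these falls are not independent of the choice. *neurod4*, a bHLH factor of newborn neurons, had 39.4, 48.4, and 65.9 CPM in the gated cells and 410, 385, and 485 CPM in the newborn pallial gate (−3.11 ± 0.14, edgeR adjusted p = 4.8e-50). *nhlh2*, another bHLH factor, had 18.3, 28.1, and 10.0 CPM against 211, 215, and 109 CPM (−3.23 ± 0.18). The Notch ligand *dlb* fell by 3.05 ± 0.19, the SoxC factor *sox12* by 3.35 ± 0.22, and *kidins220a*, a scaffold of neurotrophin receptors, by 3.39 ± 0.25, the largest fall among the genes named by the rule. Of 26 tested genes of the immature neuron list, 23 fell and 0 rose, with a median of −1.16. They included the RNA-binding protein *elavl3* (1352, 1213, and 1020 CPM against 5845, 4748, and 4628 CPM, −2.11 ± 0.13) and the SoxC factors *sox4a* (−1.67 ± 0.13) and *sox11a* (−1.91 ± 0.13). *gap43*, a protein of growing axons, did not pass the test (−0.07 ± 0.12, adjusted p = 0.65), with 685, 901, and 812 CPM in the gated cells and 762, 928, and 780 CPM in the newborn pallial gate. The immature list gave 4 rises and 7 falls of 27 genes against the GABAergic gate (median −0.08).

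Genes of mature neurons moved the other way. *chga*, chromogranin A of dense-core vesicles, had 1506, 1276, and 949 CPM in the gated cells, 192, 262, and 164 CPM in the newborn pallial gate, and 413, 467, and 366 CPM in the GABAergic gate. The gated cells were highest without overlap, by 2.56 ± 0.14 (edgeR adjusted p = 8.7e-40) and 1.56 ± 0.09 (adjusted p = 5.9e-11). *scg2b*, secretogranin II of the same vesicles, had 1199, 1090, and 898 CPM, against 167, 264, and 112 CPM in the newborn pallial gate (2.56 ± 0.14) and 772, 912, and 694 CPM in the GABAergic gate (0.41 ± 0.08, a call lost without replicate 1 at 0.30). *snap25b*, of the vesicle fusion complex, had 838, 721, and 649 CPM against 222, 240, and 195 CPM in the newborn pallial gate (1.72 ± 0.13). The neuronal sodium pump *atp1a3b* (2.60 ± 0.26) and the kinase *camk2a* (2.29 ± 0.26) also rose there.

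Of 59 tested genes of mature neurons and synapses, 47 rose against the newborn pallial gate and 4 fell (median 1.21), and of 69 tested against all other cells 57 rose and 2 fell (median 0.92, where that of all genes was −0.04). Against the GABAergic gate 12 of 61 rose and 10 fell, with a median of 0.06. There *snap25a* (−0.37 ± 0.08) and the calcium sensor *syt1a* (−0.31 ± 0.08) fell, and both calls were lost without replicate 2 (−0.31 and −0.33) or replicate 3 (−0.30 and −0.18). The list summed to 30951 ± 3228 CPM in the gated cells, 28003 CPM in the GABAergic gate, 15467 CPM in the newborn pallial gate, and 16459 CPM in all other cells. The gated cells carried more of the synapse list than the newborn pallial gate, and their median gene was close to that of the GABAergic gate. The *chga* share at 1000 UMIs followed the same order, with 48.2% of the gated cells, 30.2% of the GABAergic gate, 16.3% of the newborn pallial gate, and 7.75% of macrophage-marked cells.

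*nptx1l* is one of the listed synaptic organizers, proteins that align the sides of a synapse. This neuronal pentraxin, whose mammalian relatives cluster AMPA receptors, had 495, 521, and 510 CPM in the gated cells, 32.3, 63.0, and 33.2 CPM in the newborn pallial gate, and 126, 227, and 97.2 CPM in the GABAergic gate. The gated values hardly differed between replicates and lay above the other groups in each replicate. The rise was 3.51 ± 0.16 against the newborn pallial gate (edgeR adjusted p = 9.9e-47) and 1.82 ± 0.28 against the GABAergic gate (adjusted p = 0.045), where it was not called without replicate 1 (1.74). Of 20 tested organizers, 14 rose and 0 fell against the newborn pallial gate (median 0.96), among them the neuroligin *nlgn1* (1.69 ± 0.24). Against the GABAergic gate 3 rose and 4 fell, and the 4 were all neurexins, *nrxn3a* with the largest fall (−1.79 ± 0.26).

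Of 27 tested genes of the families of the rule markers, 5 rose against all other cells and 4 fell, with a median of −0.12, beside 17.3% higher and 21.4% lower over all genes. *c1ql3a*, the paralog of *c1ql3b*, had 4.38, 3.59, and 1.43 CPM in the gated cells and 25.5, 11.4, and 13.4 CPM in all other cells, lower in each replicate (−2.28 ± 0.34, edgeR adjusted p = 2.8e-08). *nell2a* had 7.30, 23.3, and 10.0 CPM against 8.02, 35.5, and 16.5 CPM and did not pass the test (−0.53 ± 0.23, adjusted p = 0.055). The ephrin ligand *efna1a* rose, with 65.0, 61.0, and 53.0 CPM against 22.5, 23.0, and 18.5 CPM (1.48 ± 0.14). It also rose against the newborn pallial gate (1.35 ± 0.23) and the GABAergic gate (2.15 ± 0.22). The ephrin receptor *epha6* rose (1.53 ± 0.18) and *epha4a* fell (−0.73 ± 0.12) against all other cells. *stc1l*, a relative of *stc2a*, rose by 3.05 ± 0.55 but had only 6.57, 7.17, and 2.87 CPM.

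**Figure D3:**
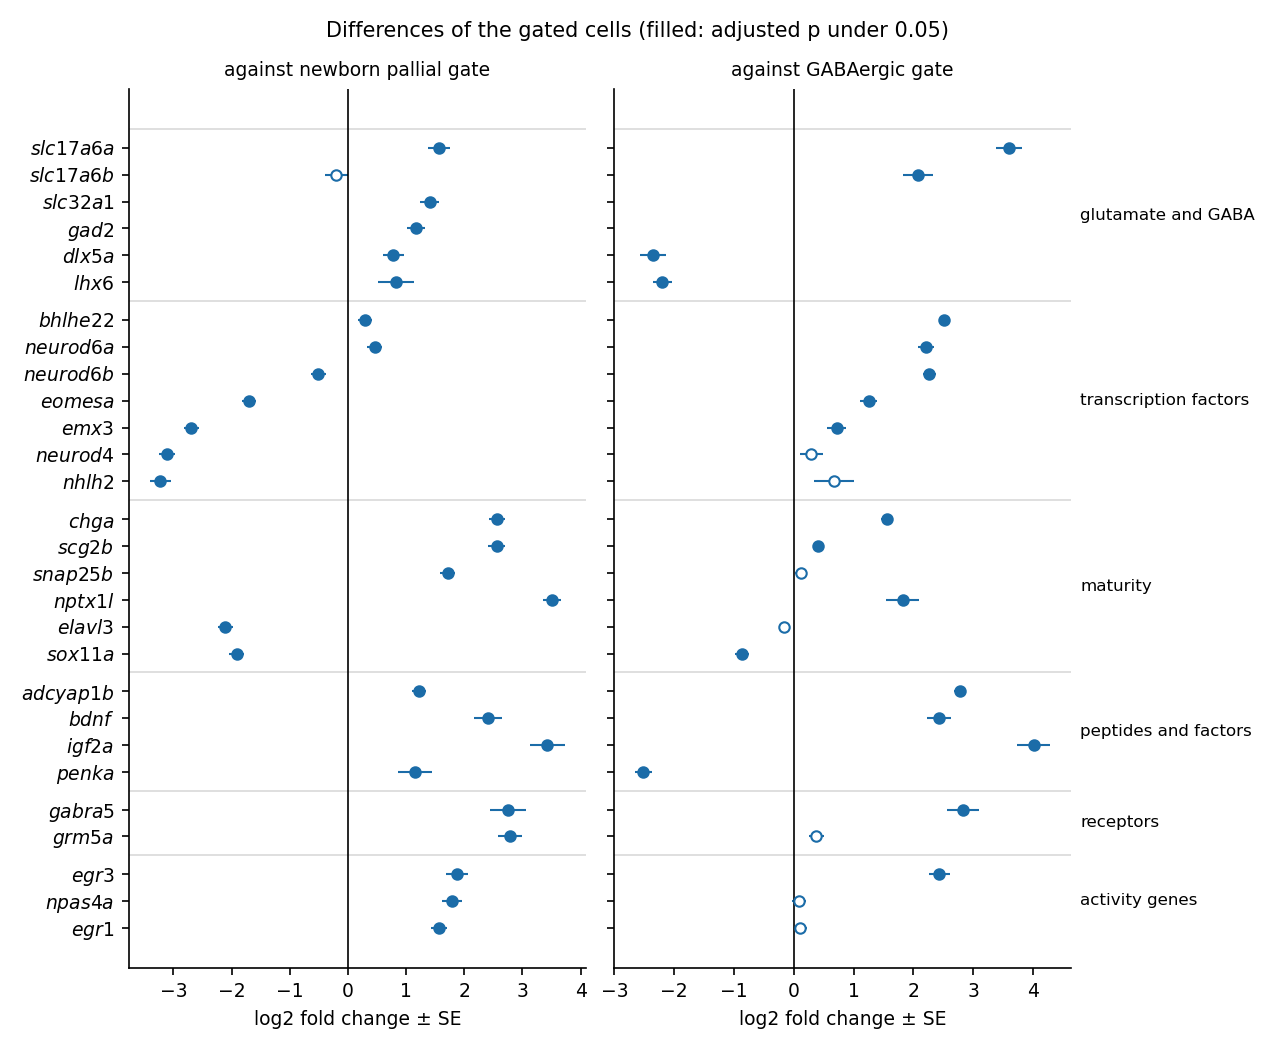
Log2 fold changes ± SE of the gated cells against the newborn pallial gate (left) and the GABAergic gate (right), from sums of 3 replicates, with filled points for adjusted p under 0.05 and genes grouped by role; *gad2* and *slc32a1* chose the GABAergic gate and are not drawn at right. *slc17a6a* lies at 1.56 and 3.60, *bhlhe22* at 0.30 and 2.52, and *neurod4* at −3.11 against the newborn pallial gate. *gad2*, *slc32a1*, *dlx5a*, and *lhx6* are drawn with all gated cells, and have values below 0 in the left panel when the gated cells with at least 2 GABAergic genes, which *gad2* and *slc32a1* helped to choose, are removed from the gated side alone.

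Secreted peptides and growth factors were among the genes with the largest rises. *adcyap1b* encodes PACAP, a peptide that raises cyclic AMP in its target cells, and had 2785, 2422, and 1655 CPM in the gated cells, 1065, 922, and 857 CPM in the newborn pallial gate, and 447, 380, and 192 CPM in the GABAergic gate. The 3 groups did not overlap, and the rises were 1.22 ± 0.13 (edgeR adjusted p = 9.5e-17) and 2.78 ± 0.09 (adjusted p = 2.2e-15). At 1000 UMIs the share of cells with a UMI was 51.3% in the gated cells and 52.0% in the newborn pallial gate, 17.5% in the GABAergic gate, and 13.9% in macrophage-marked cells. Between the gated and newborn cells the level thus differed while the share at equal depth was close. *bdnf*, a neurotrophin, had 94.9, 85.5, and 78.8 CPM in the gated cells against 16.9, 23.3, and 3.69 CPM in the newborn pallial gate and 16.6, 11.7, and 18.6 CPM in the GABAergic gate, with no overlap (2.41 ± 0.24 and 2.43 ± 0.20).

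*igf2a*, an insulin-like growth factor, had 73.0, 67.5, and 84.5 CPM in the gated cells against 1.41, 11.7, and 5.53 CPM in the newborn pallial gate and 3.90, 8.34, and 3.10 CPM in the GABAergic gate (3.43 ± 0.30 and 4.02 ± 0.27), the largest rise among the genes named against the GABAergic gate. *uts1*, a peptide of the corticotropin-releasing family, had 89.1, 67.5, and 75.9 CPM against 4.22, 2.33, and 1.84 CPM in the newborn pallial gate (4.68 ± 0.35, edgeR adjusted p = 2.0e-26), the largest rise among the genes named there. *cart4*, of the cocaine- and amphetamine-regulated transcript peptides, rose there by 3.50 ± 0.27, with 118, 60.4, and 140 CPM in the gated cells. These 3 transcripts came from few cells, since only 111, 92, and 60 gated cells had a UMI of *igf2a*, *uts1*, or *cart4*, and the 10 cells with the most UMIs held 34.9, 38.9, and 80.0% of them. Against all other cells *cart4* had an adjusted p of 0.041, a call that was lost without replicate 2 (2.34) and without the cells marked by oligodendrocyte or macrophage genes (2.33).

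Other peptides were lower than in the GABAergic gate, where 8 of 21 listed peptide and calcium-binding genes fell and 4 rose (*adcyap1b*, *bdnf*, *sst6*, and *pvalb7*). *penka*, an enkephalin precursor, had 65.0, 28.1, and 44.4 CPM against 298, 219, and 256 CPM (−2.52 ± 0.14, edgeR adjusted p = 9.0e-12). *cckb*, a cholecystokinin precursor, had 997, 635, and 711 CPM in the gated cells, between 1598, 1345, and 1800 CPM in the GABAergic gate (−1.04 ± 0.11) and 247, 132, and 282 CPM in the newborn pallial gate (1.85 ± 0.14). *penkb* had 354, 184, and 331 CPM against 1331, 1842, and 1500 CPM, with no overlap, but the test gave an adjusted p of 0.13 (−2.48 ± 0.44). The fall of *penkb* was called with DESeq2 (−2.48), with no filter on low counts (−2.47), with no block (−2.44), and without replicate 2 (−2.05). The thyrotropin-releasing hormone gene *trh* fell (−1.88 ± 0.40), a call lost without replicate 2 (−1.81), and the rise of the somatostatin-family gene *sst6* (1.29 ± 0.34) was lost without replicate 1 (1.34) or replicate 2 (0.82). Against the newborn pallial gate both enkephalin genes were higher, *penka* by 1.16 ± 0.29, a call lost without replicate 1 (0.50), and *penkb* by 0.88 ± 0.13. With at least 3 of 6 markers both calls were lost (0.48 and 0.19). Without the gated cells that have at least 2 GABAergic genes, removed from the gated side alone, the log2 fold changes of *penka* and *penkb* were −0.12 and −0.076.

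Receptors for GABA rose together against the newborn pallial gate, where 7 of 7 tested subunits were higher (median 1.78). *gabra5*, the alpha5 subunit, had 44.5, 71.7, and 44.4 CPM in the gated cells, 1.41, 12.8, and 9.21 CPM in the newborn pallial gate, and 3.90, 10.0, and 10.3 CPM in the GABAergic gate. It was highest in the gated cells without overlap, by 2.76 ± 0.31 against the newborn pallial gate and by 2.83 ± 0.27 against the GABAergic gate (edgeR adjusted p = 8.6e-08 for the last comparison). Of 8 listed GABA receptor genes tested against the GABAergic gate, 2 rose, *gabra5* among them, and 2 fell. Against all other cells 9 of 13 rose and 0 fell.

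Voltage-gated channels rose against the newborn pallial gate (10 of 14 tested, 2 fell, median 1.04), for example the potassium channel *kcnd2* (1.94 ± 0.26). Of 25 tested against the GABAergic gate, 0 rose and 5 fell, *kcnd3* by 1.76 ± 0.20. There 1 gene was higher at an unadjusted p under 0.05 and 0 rose in DESeq2, and the median was −0.17. Further genes that rose against both groups of neurons were *atp2a3*, a calcium pump of the endoplasmic reticulum (88.3, 72.3, and 90.3 CPM in the gated cells, 2.76 ± 0.26 and 2.57 ± 0.20), and *sat1a.1*, which acetylates spermidine and spermine (94.9, 31.7, and 34.4 CPM, 2.98 ± 0.33 and 3.64 ± 0.30). *nrn1a*, neuritin, an activity-regulated protein of the neuronal surface, had 233, 243, and 181 CPM in the gated cells and rose by 2.63 ± 0.14 against the GABAergic gate and by 0.41 ± 0.13 against the newborn pallial gate, where its call was lost without replicate 2 (0.23). *mcama*, a cell adhesion molecule, rose by 2.88 ± 0.21 against the GABAergic gate, and *fndc5b*, whose mammalian relative is the precursor of irisin, by 3.74 ± 0.37 against the newborn pallial gate. Against all other cells *asic4a*, an acid-sensing channel, rose by 2.04 ± 0.15 and *cd36*, a lipid scavenger receptor, by 1.99 ± 0.12.

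Immediate early genes are transcribed quickly after a stimulus, in neurons after activity. The cells were dissociated and sorted before capture, and what set the levels of these genes was not tested. Of 24 tested, 19 rose against the newborn pallial gate and 2 fell (median 1.15). *egr3*, a zinc finger factor, had 112, 150, and 70.2 CPM in the gated cells, 26.7, 42.0, and 20.3 CPM in the newborn pallial gate, and 20.5, 25.0, and 14.5 CPM in the GABAergic gate. It was highest in the gated cells without overlap (1.88 ± 0.19, edgeR adjusted p = 3.0e-17, and 2.43 ± 0.17, adjusted p = 6.1e-10). *npas4a*, induced by neuronal depolarization in mammals, had 203, 146, and 102 CPM in the gated cells and rose against the newborn pallial gate (1.79 ± 0.17), but had 165, 132, and 124 CPM in the GABAergic gate, which overlap (0.09 ± 0.12, adjusted p = 0.74). Of 25 tested against the GABAergic gate, 4 rose (*egr3*, *fosl1a*, *dusp5*, and *junbb*) and 2 fell, and the median was −0.02. Against all other cells 14 of 27 rose and 6 fell, the latter including *fosab*, at −0.22 ± 0.07, a call lost without replicate 1 (−0.16) or replicate 3 (−0.17).

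Some of the largest rises were of oligodendrocyte genes. *mbpa*, myelin basic protein, had 1248, 2220, and 2853 CPM in the gated cells and 135, 251, and 267 CPM in the newborn pallial gate (3.23 ± 0.14). Without the cells marked by oligodendrocyte or macrophage genes, its log2 fold change was 0.18 and no longer called. *plp1b*, the myelin proteolipid gene, rose by 2.15 ± 0.21 against the GABAergic gate (edgeR adjusted p = 0.031) and stood at 0.41 without these cells, again not called, and the call was also lost without replicate 2 (2.15). *csrp1b* and *crp1*, also among the 10 largest rises against the newborn pallial gate, were too low to be tested without these cells. Without them *uts1*, *igf2a*, *nptx1l*, *chga*, *slc17a6a*, *bhlhe22*, and *gabra5* were still called higher than in the newborn pallial gate, and *nptx1l* lost its call against the GABAergic gate (1.91).

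Genes of glia and dividing cells were among the 3034 that fell against all other cells. All 14 tested radial glia markers fell and 0 rose, with a median of −2.79, as did 9 of 9 markers of proliferating cells. *cx43*, the astroglial connexin, had 94.2, 104, and 86.0 CPM in the gated cells and 1895, 1737, and 1825 CPM in all other cells (−4.25 ± 0.09, edgeR adjusted p = 8.8e-53). *mki67*, a protein of dividing cells, fell by 4.34 ± 0.27, and the growth factor *ptn* by 4.02 ± 0.14. *sox2* fell by 1.5 ± 0.10. *slc1a2b* and 3 cell cycle genes are part of the rule, so these falls are given as a description. Falls were also found among the immature neuron genes (17 of 27, with 8 rises), the pallial transcription factors (13 of 37, with 11 rises), and the macrophage markers (11 of 16).

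Within the gated cells, levels moved with the number of markers detected. *adcyap1b* had a mean of 798 CPM in cells with 1 marker, just outside the rule, and 1228, 2497, and 4545 CPM in gated cells with 2, 3, and 4 or more. *chga* had 357, 675, 1395, and 2375 CPM, *nptx1l* 104, 252, 496, and 1157 CPM, and *slc17a6a* 27.4, 62.4, 116, and 176 CPM in the same order. *gad2* had 323, 295, 128, and 97.5 CPM, and *plp1b* 8062, 9370, 5996, and 680 CPM. Of these 6 genes, the first 4 were thus highest and *gad2* and *plp1b* lowest in the cells with 4 or more markers. The lists did not all follow. Summed over the list, the pallial transcription factors had 4979, 4900, 5188, and 5258 CPM in the same order, the immature neuron genes 22774, 21410, 20501, and 18592 CPM, and the GABAergic markers 1365, 1156, 476, and 478 CPM. The cells with more markers were deeper, and the part of depth in this order was not tested beyond the thinned shares. The markers counted are those of the rule and were picked together from these data, so this order is given as a description. *c1ql3b* is among the markers counted, so this order and the division by *c1ql3b* below are not independent of each other. At 1000 UMIs, *nptx1l* was found in 15% of the gated cells with 2 markers and 49.3% of those with 4 or more, and *uts1* in 1.12 and 14.3%.

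**Figure D4:**
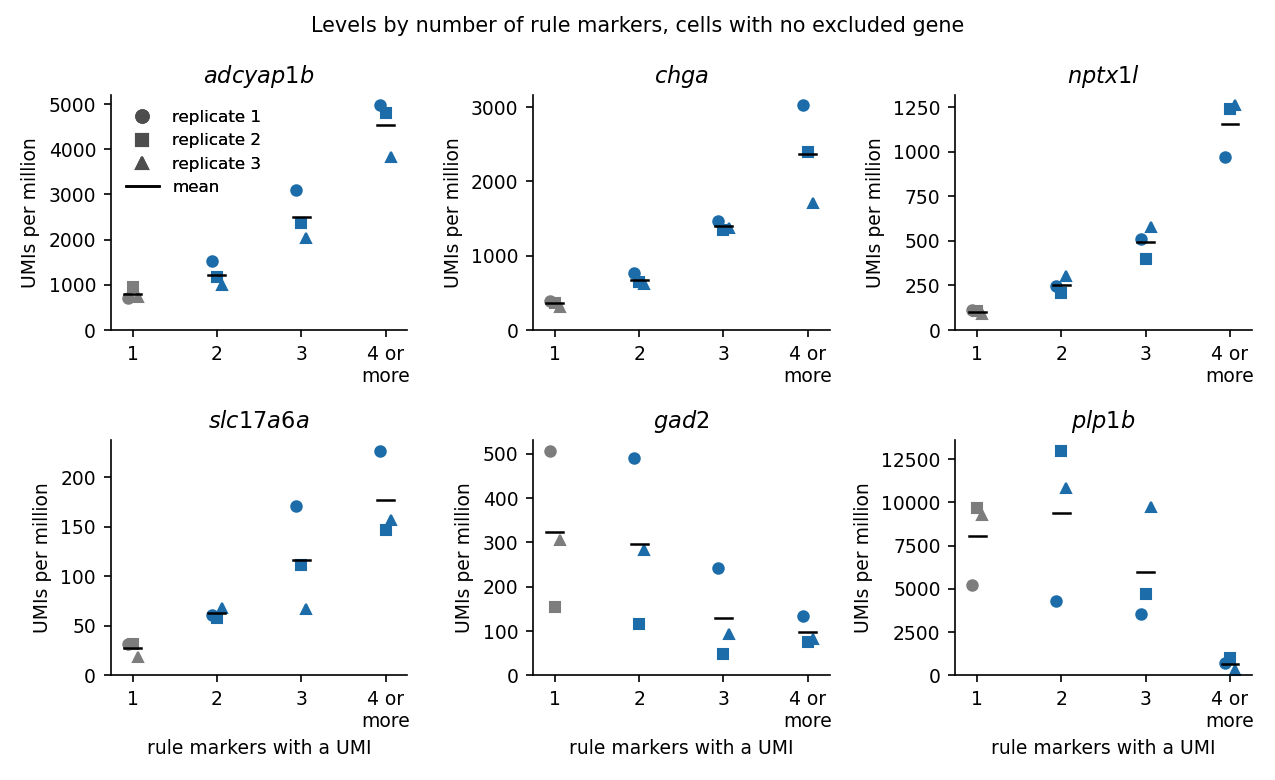
CPM of 6 genes in cells with no excluded gene and 1, 2, 3, or 4 or more rule markers with a UMI, with 1 symbol per replicate and a bar for the mean; cells with 1 marker lie outside the rule. *adcyap1b* goes from 798 to 4545 and *slc17a6a* from 27.4 to 176, whereas *gad2* goes from 323 to 97.5 and *plp1b* from 8062 to 680. The rule markers came from these data, so the order is a description.

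The gated cells were then divided by *c1ql3b*. The 448 cells with a *c1ql3b* UMI had a median of 1746 UMIs and the 1359 cells without had 1736, so depth was close. The split used a rule marker, and a cell with *c1ql3b* needed fewer of the other markers than a cell without it. Mean levels with and without *c1ql3b* were 1301 and 1772 CPM for *nell2b*, 163 and 290 for *phlda2*, and 316 and 414 for *efna1b*. *c1qtnf4* (835 and 647 CPM) and *stc2a* (258 and 92.2 CPM) went the other way. Differences and p-values in this split, here and below, are therefore not independent of the rule for genes found with the markers. Of 5942 genes tested, 228 differed (3.84%; 138 or 2.32% higher with *c1ql3b*, 90 or 1.51% lower). The count rested on single replicates. It was 42 higher and 16 lower without replicate 1, 49 and 21 without replicate 2, and 222 and 171 without replicate 3, which had the fewest gated cells.

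The largest rises with *c1ql3b* were 3 secreted factors. *uts1* had 269, 244, and 349 CPM in cells with *c1ql3b* and 14.5, 8.0, and 8.92 CPM in cells without (4.72 ± 0.23, edgeR adjusted p = 1.8e-08). *cart4* had 373, 220, and 523 CPM against 11.4, 6.40, and 46.4 CPM (4.41 ± 0.25, adjusted p = 1.5e-07), and *igf2a* had 209, 208, and 356 CPM against 16.5, 20, and 17.8 CPM (3.72 ± 0.22, adjusted p = 1.3e-07). Each was higher with *c1ql3b* in every replicate, with no overlap. Next came *capn2b*, a calpain protease (49.8, 85.1, and 109 CPM against 12.4, 8.8, and 10.7 CPM, 2.87 ± 0.33), and *eif4ebp3l*, a repressor of translation initiation (555, 452, and 225 CPM against 77.5, 64.0, and 67.8 CPM, 2.64 ± 0.18).

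The 3 factors overlapped in part of the cells. Of 203 gated cells with a UMI of at least 1 of them, 48 had at least 2 and 12 had all 3. Of the gated cells with *c1ql3b*, 15.2% had a UMI of *uts1*, 8.71% of *cart4*, and 18.1% of *igf2a*, against 1.77, 1.55, and 2.21% of those without. Of the 48 cells with at least 2, 45 had *c1ql3b*. This was 10.0% of the cells with *c1ql3b* (9.90, 9.33, and 13.2% by replicate) and 0.221% of those without. The 12 cells with all 3 each had *c1ql3b*. Among cells outside the gate with *c1ql3b*, 37 of 639 (5.79%) had at least 2 of the 3, and 36 of the 37 had an excluded gene. The 37 cells had a median of 3634 UMIs. Of the 48 gated cells, 23 had a UMI of a vesicular glutamate transporter and 9 of a GABA gene, and a cell with both is counted in each. Such transporter cells were 1.45, 0.755, and 2.18% of all gated cells in replicates 1, 2, and 3, and such GABA cells 0.579, 0.629, and 0%. Of all gated cells without thinning, 17.6% had only a transporter, 23.5% only a GABA gene, and 6.86% both. The 48 cells were deeper, with a median of 2174 UMIs against 1736 for all gated cells. Nearly all gated cells with at least 2 of these factors carried *c1ql3b*, and most cells with *c1ql3b* carried none of the 3. The 3 factors were picked for their rise with *c1ql3b* in these same cells, so their overlap with it is a description.

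Vesicle and peptide genes also rose with *c1ql3b*. *adcyap1b* had 5719, 6042, and 3995 CPM with *c1ql3b* and 1567, 1197, and 1080 CPM without (2.06 ± 0.13, edgeR adjusted p = 1.5e-07). *nptx1l* had 1038, 1315, and 1525 CPM against 270, 252, and 261 CPM (2.32 ± 0.14), and *chga* had 3030, 2746, and 2237 CPM against 874, 779, and 632 CPM (1.84 ± 0.12). For these 3 genes every sum with *c1ql3b* was above every sum without. *scg2b* (1.64 ± 0.14) and *snap25b* (1.23 ± 0.13) rose as well, and of 59 synapse genes tested 8 rose and 1 fell, with a median of 0.11. Of 13 peptide and calcium-binding genes, 4 rose (*adcyap1b*, *bdnf*, *sst6*, and *tac3a*). The calls of *bdnf* (0.95 and 0.99) and *sst6* (1.69 and 1.2) were lost without replicate 1 or 2, and that of *tac3a* (1.95) without replicate 1.

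Some genes of younger neurons fell with *c1ql3b*. *eomesa* had 172, 258, and 109 CPM with *c1ql3b* and 346, 594, and 412 CPM without (−1.23 ± 0.15, edgeR adjusted p = 0.00026). *tubb5*, a tubulin of growing neurons, had 924, 1426, and 1097 CPM against 1828, 4258, and 4243 CPM (−1.47 ± 0.16, adjusted p = 6.8e-05), lower in each replicate without overlap. Of 23 immature neuron genes tested, 6 fell and 1 rose (median −0.47). Of 22 pallial transcription factors tested, *eomesa* and *tbr1b* fell and *mef2cb* and *neurod6a* rose (median −0.21). The rises of *mef2cb* (1.67 and 0.68) and *neurod6a* (0.48 and 0.59) were not called without replicate 1 or 2. *tbr1b* fell by 0.65 ± 0.16, and its call was lost without replicate 1 (−0.85) or replicate 2 (−0.49), as was that of *tuba1a* without replicate 2 (−0.88).

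Transmitter genes and *bhlhe22* gave no call in this split. Of 13 glutamatergic, 10 GABAergic identity, and 7 GABA receptor genes tested, none passed in edgeR or in DESeq2. At an unadjusted p under 0.05, 5 glutamatergic genes were higher and 1 lower, and 2 genes of either GABA list were higher. *slc17a6a* had 154, 123, and 109 CPM with *c1ql3b* and 121, 85.6, and 75.0 CPM without (0.48 ± 0.17, edgeR adjusted p = 0.17), higher in each replicate though the groups overlap. *gad2* had 241, 125, and 247 CPM against 377, 73.6, and 202 CPM (0.04 ± 0.25, adjusted p = 0.96), and *bhlhe22* had 685, 712, and 690 CPM against 653, 874, and 900 CPM (−0.16 ± 0.13, adjusted p = 0.57). None of 23 immediate early genes passed in either tool, and at an unadjusted p under 0.05 3 were higher and 5 lower. A p above the threshold does not show that the 2 sets of cells are alike in these genes.

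Markers of other cells moved with this split too. Of 8 tested oligodendrocyte markers, 4 fell and 0 rose. *mpz*, a myelin gene of fish, had 627, 835, and 879 CPM with *c1ql3b* and 1607, 3254, and 3711 CPM without (−1.76 ± 0.15, edgeR adjusted p = 4.7e-06), but stood at 0.089 without the cells marked by oligodendrocyte or macrophage genes. The macrophage genes *ccl34b.1* (115, 293, and 14.5 CPM against 12.4, 90.4, and 8.92 CPM) and *apoc1* (57.3, 154, and 14.5 CPM against 12.4, 57.6, and 7.14 CPM) were higher with *c1ql3b*, the latter not called without replicate 1 (1.42). *cart2*, a CART peptide with the largest fall among the genes named, had 42.3, 2.36, and 0 CPM against 124, 51.2, and 3.57 CPM. It was not called with DESeq2 (−2.29), with no block (−1.73), or without replicate 2 (−1.55). Only 31 gated cells had a UMI of *cart2*, and the 10 cells with the most held 89.7% of its UMIs. The rises of *uts1*, *cart4*, and *igf2a* were called without the marked cells as well.

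**Figure D5:**
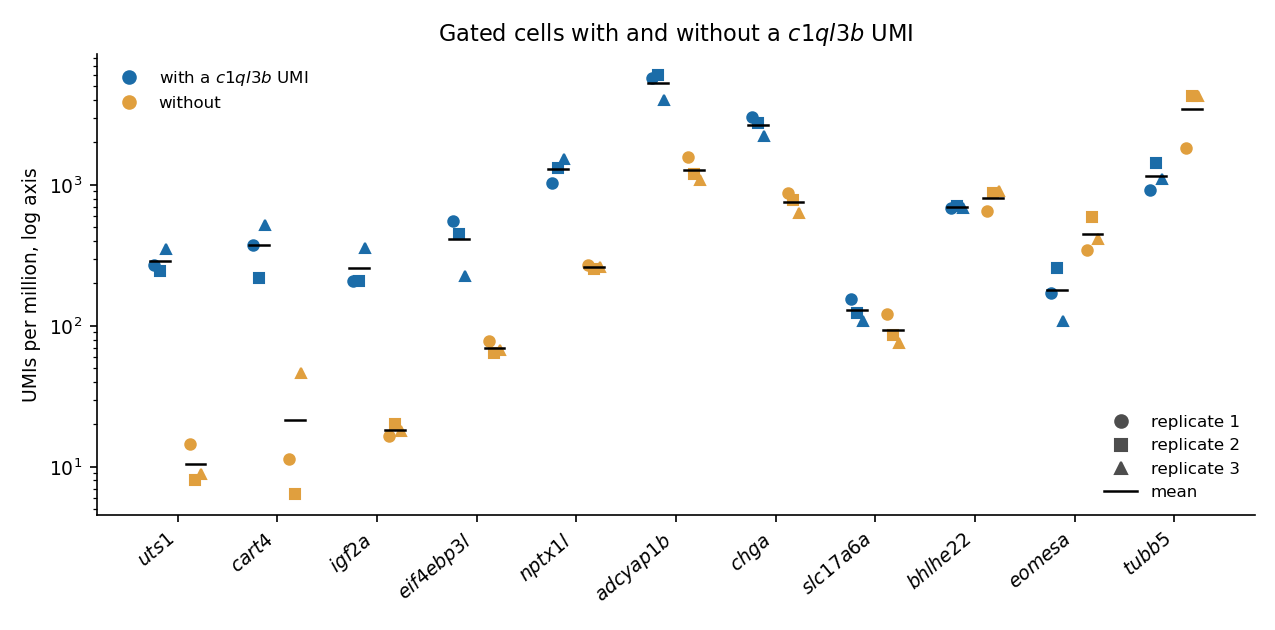
CPM (log axis) of 11 genes in gated cells with and without a *c1ql3b* UMI, with 1 symbol per replicate and a bar for the mean. *uts1* lies between 244 and 349 with *c1ql3b* and between 8.0 and 14.5 without, *eomesa* is lower with *c1ql3b* in each replicate, and *slc17a6a* and *bhlhe22* overlap between the 2 sets of cells.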

How the data were processed

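Cells of the *Tg(Sox2:gfp)* telencephalon after LY were measured in 3 replicate libraries. Reads were mapped by the authors to GRCz11 (Cell Ranger 3.0.1, as recorded with the deposited counts), and the deposited values are raw UMI counts per gene and barcode. The members and the gene lists were chosen with earlier results of these data known. Cells with at least 200 genes and at most 10% mitochondrial UMIs were kept, and for each of the 743 symbols listed again under another identifier, the one with more UMIs was taken.

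UMI counts were summed per replicate and gate and tested with edgeR 4.0.16 in R 4.3.3 (TMM normalization, filterByExpr, robust quasi-likelihood test, replicate as a block, p-values adjusted by Benjamini-Hochberg across every tested gene, threshold 0.05). The SE was obtained from the log2 fold change and its F statistic. The sums paired in a replicate come from 1 library, and their deviations from the group means correlated by 0.57, 0.49, and 0.30 in replicates 1, 2, and 3 against all other cells and by at least 0.15 in each comparison. No single value was tested alone, since flipping signs over 3 replicates gives an exact two-sided p of 0.25 at best. The fits were tested on simulated counts.

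Named genes were those with the largest changes, 15 rises and 10 falls against all other cells, 10 and 10 against each other gate, and 5 and 5 in the *c1ql3b* split. They had to pass the threshold, move in 1 direction in every replicate, and reach 50 CPM and 30 UMIs in the higher group. Genes of the lists were named besides, and genes of unknown role were left out. For shares, UMIs were drawn at random to 1000 per cell (seed 1). The planned background gate of 3 markers caught 1964 cells, of which only 552 had over 5% of their UMIs from the oligodendrocyte list or UMIs of at least 5 macrophage markers, so the background is given from cells with at least 5 macrophage markers instead, a choice made after seeing the data. Doublets were not removed in the main analysis. Scrublet in scanpy 1.11.5 called 2, 0, and 0 cells, under 0.5%, so its highest scores, 0.8% per 1000 cells, were left out as an alternative, which took 62 gated cells. The other alternatives were DESeq2 1.42.0, RLE factors, no filter on low counts, no block, each replicate left out, at least 3 markers, thinning, and a loess filter of genes on UMIs, and, chosen after seeing the data, leaving out cells marked by oligodendrocyte or macrophage genes and gated cells with GABAergic genes. Python 3.11.15, numpy 2.4.6, scipy 1.17.1, and pandas 2.3.3 were used.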

Additional observations from a re-analysis of the deposited data

How the results depend on the processing

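The counts of calls moved more with the processing than the named genes did. Over 2321 refits of named genes, 2137 kept direction and side of the threshold, 151 lost the call, 26 gained one, and 7 changed sign. The 7 were *gad2* (−0.74), *slc32a1* (−1.18), *dlx5a* (−0.069), *lhx6* (−0.13), *penka* (−0.12), and *penkb* (−0.076) against the newborn pallial gate without the gated cells with GABAergic genes, which *gad2* and *slc32a1* helped to choose, and *mpz* (0.089) in the *c1ql3b* split without the cells marked by oligodendrocyte or macrophage genes. DESeq2 gave 1546 higher and 1765 lower genes against all other cells, 1010 and 869 against the newborn pallial gate, 198 and 197 against the GABAergic gate, and 58 and 25 in the *c1ql3b* split. Thinning gave 1110 and 1003 genes against the newborn pallial gate and 332 and 284 against the GABAergic gate, with fewer genes tested. In the *c1ql3b* split, no filter gave 220 lower genes, and leaving out the gated cells with GABAergic genes gave 268 higher and 188 lower, and the cause was not tested. No filter made 34.1% of the calls against all other cells higher instead of 44.7%, and in the *c1ql3b* split 44.4% instead of 60.5%, while the median of all genes shifted to −0.30 and −0.17, and to 0.22 against the newborn pallial gate.

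Without the replicate block, 902 higher and 1554 lower genes were called against all other cells, 1154 lower against the newborn pallial gate, 210 and 173 against the GABAergic gate, and 41 and 6 (87.2% higher) in the *c1ql3b* split. Of the main calls, 2442 of 5487, 2433 of 3683, 373 of 1104, and 47 of 228 were also made without the block, and none changed sign.

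Leaving out 1 replicate gave 1519 to 2338 higher and 2020 to 2661 lower genes against all other cells, 1558 to 1845 and 1393 to 1620 against the newborn pallial gate, 377 to 483 and 362 to 397 against the GABAergic gate, and 42 to 222 and 16 to 171 in the *c1ql3b* split (72.4% higher without replicate 1). The share of gated cells ranged from 7.48 to 10.96% in this way, and was 4.0% with 3 markers and 22.9% with 1. Thinned, the held-out log2 ratio of *c1ql3b* was 3.46 and of *c1qtnf4* 2.5. The share of gated cells with *slc17a6a* was 9.88% at 1000 UMIs, 4.81% at 500, and 16.5% without thinning, so shares are shares at a depth. Thin transcripts such as *slc17a7a* limit what 1807 cells can show.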
